A study of Mus musculus with 6 samples.

Results

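The Polycomb and trithorax chromatin genes described here are a named list of 39 genes, chosen as the subunits of the Polycomb complexes and of the complexes that oppose them. Of these, 35 had at least 1 probe named in the annotation, with 56 probes in all. Names were at hand only for the 18312 probes of the authors' log2 table, each detected at p under 0.01 on at least 1 array. Named probes had thus already been selected by detection, and all 35 members passed the detection filter, among 9908 genes tested. The members Ezh1, Phf1, Jarid2 and Rnf2 are not analysed here, because no probe among these is named for them. Whether their probes were undetected or unnamed cannot be told. Expression was measured on 1-colour Illumina bead arrays in total RNA of mouse cells labelled as immortalized limb mesenchyme lines of stage E10.5. There were 3 samples labelled anterior and 3 labelled posterior, with no treatment that set the groups apart. The titles number them as replicates within each group, so each group may be 1 line. Line and position could then not be told apart. All 6 samples, in both groups, carry a temperature-sensitive SV40 T antigen, an oncoprotein used to immortalize cells. The labels give no strain, sex or clone, and nothing says that the samples of a line were separate cultures, and the p-values below therefore cover no more than the scatter among these 6 samples, which may be technical.

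Polycomb proteins keep genes of other lineages silent. Polycomb repressive complex 2 (PRC2) methylates histone H3, and PRC1 places ubiquitin on histone H2A and compacts the chromatin. Trithorax-group proteins of the COMPASS family methylate another site of histone H3 at active genes, and the KDM6 enzymes remove the PRC2 mark. In the limb bud this system is best known for holding the Hox clusters silent until each gene is activated in its own domain. Many subunits exist as paralogues that take the same place in a complex, so cells differ in which paralogue fills it.

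Levels below are normalized log2 intensities of the gene's brightest tested probe, and differences are posterior minus anterior each with its fitted standard error (SE). A gene passed where the adjusted p of the limma fit, taken over all tested probes, was under 0.05. A probe counts as detected on an array where its detection p-value was under 0.05. Levels of different probes are not on a common scale, so only differences are set side by side. In these bulk samples fewer cells of a type and less RNA per cell cannot be told apart.

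The arrays detected 16052 to 17705 probes in anterior and 17784 to 18657 in posterior. On the anterior arrays the markers went against the labelled cell type, and on the posterior arrays they bore it out only in part. Of 11 limb mesenchyme markers 7 were tested, 4 of them were detected on all anterior arrays and 7 on all posterior arrays, and their summed intensity was 145 to 168 in anterior and 3150 to 5495 in posterior. All 14 markers of pluripotent stem cells were detected on all anterior arrays and 12 on all posterior arrays, with Tdgf1 on no posterior array. Their summed intensity was 51026 to 54106 in anterior and 16082 to 21616 in posterior, and 13 of the 14 were lower. Such sums are weighted to the brightest probes. The median log2 difference was -3.13 over the 14 pluripotency markers and 2.09 over the 7 tested limb markers. Of 5 epithelial markers 4 were tested and 3 were higher, and of 5 endothelial markers 2 were tested and 1 was lower. Of 8 genes of dividing cells 5 were tested and 2 were lower, Mcm5 by 0.48 and Pcna by 0.65 on the log2 scale. No blood marker was tested, and the muscle gene Myog did not pass. The part of these markers in the differences below was not tested.

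Among the 35 tested members, 10 were higher and 12 lower in posterior, and 13 did not pass. Over all tested genes 25.9% were higher and 21.5% were lower, against 28.6% and 34.3% of the members. In either direction 22 members passed, or 62.9%, against 47.4% of all genes. Of the member probes 57.1% passed, against 42.6% of all probes. Among the 31 members detected on all 6 arrays 7 were higher and 12 lower (22.6% and 38.7%), against 22.0% and 23.1% of the genes so detected, and 61.3% against 45.2% in either direction. The members' median difference was -0.11 on the log2 scale, and that of all genes was 0.03. The median size of the difference, regardless of sign, was 0.61 for members and 0.46 for all genes. The groups did not overlap in 27 members, a pattern found in 58.3% of all genes. In 17 members the call came with a change of at least 1.5-fold, as in 38.1% of all genes. The members therefore moved in both directions, and no single direction describes them.

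Calls in the 11 members Phc1, Phc2, Cbx2, Cbx8, Bmi1, Yaf2, Eed, Phf19, Ash2l, Dpy30 and Kdm6b were kept under every alternative in which the gene was tested. Cbx8 and Yaf2 were tested in only 13 of the 18 alternatives, none of which left out a posterior array, and Bmi1 in 17. Without posterior replicate 2, 5 members were higher and 9 lower, of 33 tested, and 34.2% of all genes passed. Without posterior replicate 3 the counts were 6 and 9, and 37.5% of all genes passed. When arrays were scaled to a common median, the typical gene shifted upward by 0.17 on the log2 scale and the members split into 13 higher and 5 lower.

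**Figure D1:**
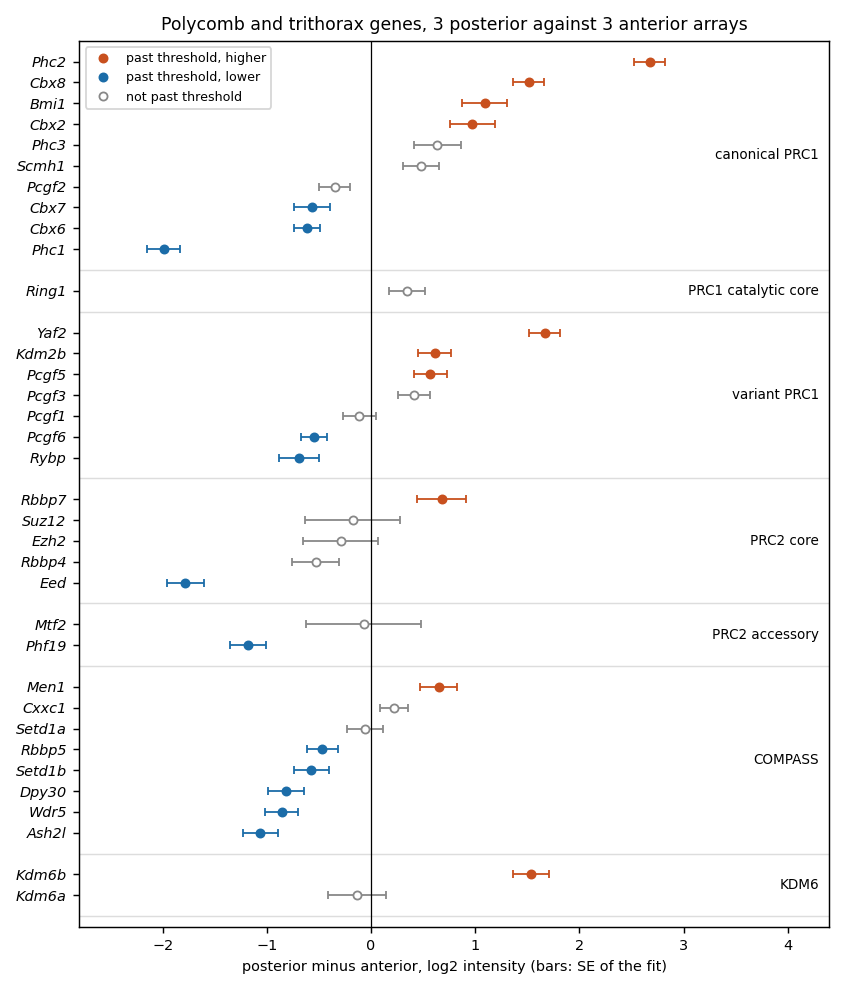
Difference between posterior and anterior for the 35 tested members, grouped by complex. Points are log2 differences, bars are the SE of the fit over 3 arrays a group, filled points passed the threshold and open points did not. Phc2 at 2.67 and Phc1 at -1.99 mark the ends of the range, and the points of Cbx8 and Yaf2, undetected in anterior, are fitted values and not measured folds.

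The polyhomeotic genes of canonical PRC1 changed in opposite directions. Their proteins carry a SAM domain that joins PRC1 complexes into larger assemblies. Phc1 lay at 11.15, 11.51 and 11.26 on the anterior arrays and at 9.12, 9.51 and 9.32 on the posterior arrays, 3.97-fold lower (log2 -1.99, SE 0.16, limma adjusted p = 3.11e-05). Phc2 lay at 7.61, 7.83 and 7.86 in anterior and at 10.24, 10.53 and 10.55 in posterior, 6.38-fold higher (log2 2.67, SE 0.15, limma adjusted p = 5.10e-06). For both genes every posterior array stood apart from every anterior array. All 3 Phc1 probes were lower, with differences from -2.16 to -1.07, and the dimmest of them was detected on all anterior and no posterior arrays. Phc3 was read by a probe designed on a cDNA clone and detected on 1 of 3 anterior arrays. Its levels were 4.82, 4.71 and 5.57 in anterior and 5.67, 5.80 and 5.54 in posterior, so the groups overlapped and it did not pass (log2 0.64, SE 0.23, limma adjusted p = 0.0509). Without anterior replicate 3 its difference was 0.92 and it passed (limma adjusted p = 0.00264), but it did not pass without any other single array.

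The promoters of this opposed pair are shown because they differ in base content. They run from 250 bases before to 50 after an annotated start, are taken from RefSeq on GRCm38.p6, read 5′ to 3′ on the gene's strand, and have each CG dinucleotide in capitals. For Phc2, which has 3 listed starts with 45, 19 and 2 CG, the start with the most is given.
Phc1, chr6:122340178-122340477, minus strand: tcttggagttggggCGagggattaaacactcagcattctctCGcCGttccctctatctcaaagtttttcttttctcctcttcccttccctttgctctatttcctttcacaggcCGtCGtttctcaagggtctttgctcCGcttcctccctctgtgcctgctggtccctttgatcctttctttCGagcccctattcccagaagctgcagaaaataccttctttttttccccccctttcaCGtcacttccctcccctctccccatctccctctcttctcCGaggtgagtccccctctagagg
Phc2, chr4:128727321-128727620, plus strand: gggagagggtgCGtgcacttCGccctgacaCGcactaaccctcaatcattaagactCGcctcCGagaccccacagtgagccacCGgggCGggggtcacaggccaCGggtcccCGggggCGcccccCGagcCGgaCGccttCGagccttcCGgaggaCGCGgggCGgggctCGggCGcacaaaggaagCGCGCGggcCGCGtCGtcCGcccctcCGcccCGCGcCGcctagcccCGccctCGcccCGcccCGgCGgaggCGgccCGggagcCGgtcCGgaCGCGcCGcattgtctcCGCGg

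The Phc1 promoter held 9 CG and that of Phc2 held 45. The median over all 32851 promoters in the table was 7, with 54.2% of them below Phc1 and 98.1% below this start of Phc2. The 46 promoters listed for 31 of the members had a median of 24. These counts describe the sequence and say nothing of its methylation in these cells.

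Among the chromobox genes, whose proteins hold PRC1 on methylated histone H3, Cbx2 and Cbx8 were higher and Cbx6 and Cbx7 lower. Cbx2 lay at 6.91, 7.33 and 6.74 in anterior and at 7.59, 8.21 and 8.10 in posterior, 1.96-fold higher (log2 0.97, SE 0.21, limma adjusted p = 0.00652). Cbx8 was detected on no anterior array, where it lay at 4.63, 4.37 and 4.54, and on all posterior arrays, at 6.18, 6.05 and 5.85. With the background correction used here it was at least 2.29-fold higher (limma adjusted p = 8.70e-05), but it passed the detection filter only through the posterior arrays. Such a bound divides the mean of the group with signal by a floor for the other group. On each array the floor is the weakest signal called detected or the reading of the probe, whichever is larger. A bound of this kind does not hold for other background corrections or offsets, which can give smaller differences. Cbx6 was the member with the smallest spread, at 8.38, 8.42 and 8.40 in anterior and 7.70, 7.83 and 7.83 in posterior, 1.53-fold lower (log2 -0.61, SE 0.12, limma adjusted p = 0.00441). Cbx7, the main chromobox gene of mouse embryonic stem cells, lay at 9.87, 10.10 and 9.63 in anterior and 9.48, 9.36 and 9.06 in posterior (log2 -0.57, SE 0.17, limma adjusted p = 0.0289). The groups did not overlap in any of the 4 genes.

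The Cbx7 call was lost without anterior replicate 1 (adjusted p = 0.0800) or 2 (0.0826) and without posterior replicate 2 (0.0718) or 3 (0.109). With arrays scaled to a common median neither Cbx6 (adjusted p = 0.228) nor Cbx7 (0.233) passed, and both kept their sign. In RefSeq's gene order Cbx2 and Cbx8 are next to each other on chromosome 11 with 0 annotated genes between them. Cbx6 and Cbx7 lie on chromosome 15 with 1 protein-coding gene between them.

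Canonical PRC1 also needs a ring-finger partner, BMI1 or PCGF2, beside its ubiquitin ligase. Bmi1 lay at 4.91, 4.42 and 4.94 in anterior, with 2 of 3 arrays detecting it, and at 6.24, 5.74 and 5.56 in posterior, 2.13-fold higher (log2 1.09, SE 0.22, limma adjusted p = 0.00404). Pcgf2 lay at 6.23, 6.05 and 6.43 in anterior and at 5.76, 6.01 and 5.89 in posterior and did not pass (log2 -0.35, SE 0.15, limma adjusted p = 0.0925). The ligase gene Ring1 lay at 7.02, 7.18 and 6.69 in anterior and 7.31, 7.10 and 7.51 in posterior, with overlapping groups (limma adjusted p = 0.149). Its other probe did not pass either. Scmh1, which encodes a SAM-domain protein that binds PRC1, had a difference of 0.48 (SE 0.17, limma adjusted p = 0.0507). Scmh1 passed without anterior replicate 2 (limma adjusted p = 0.0180) but not without any other single array.

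**Figure D2:**
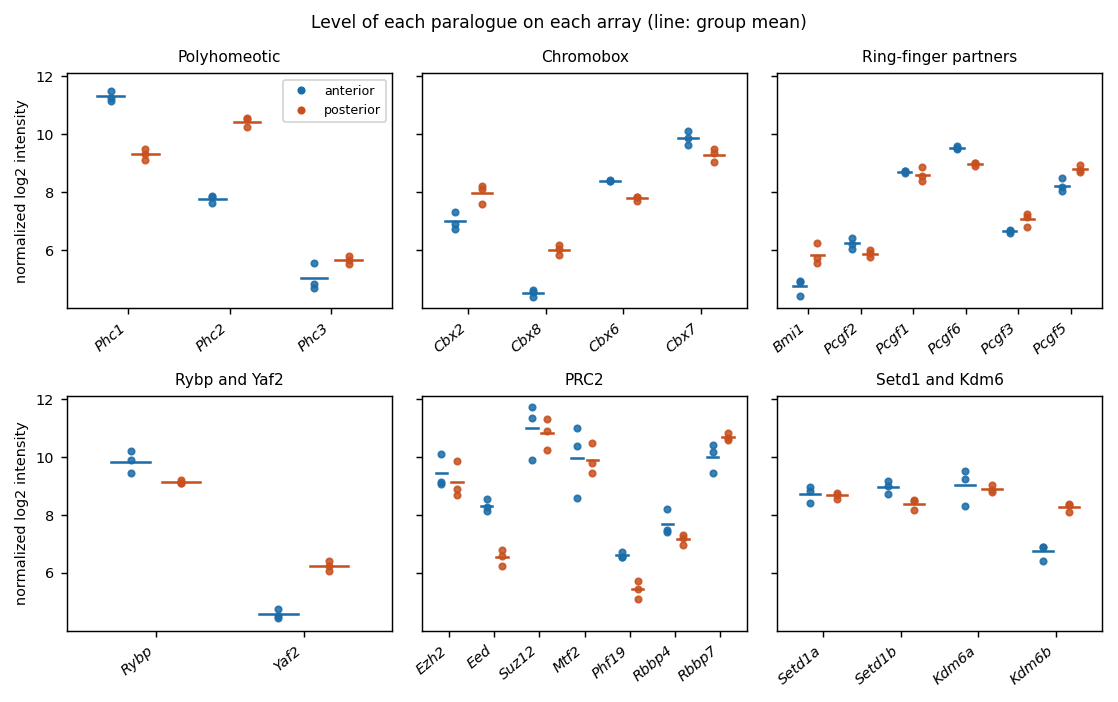
Level of the members in their paralogue sets and in PRC2 on each of the 6 arrays, in normalized log2 intensity. Points are arrays and lines are group means of 3 arrays. For Phc1 and for Phc2 the groups do not overlap, and Mtf2 and Suz12 are spread within each group.

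Variant PRC1 complexes hold RYBP or YAF2 where canonical PRC1 holds a chromobox protein, and these paralogues also changed in opposite directions. Rybp lay at 9.88, 9.45 and 10.19 in anterior and at 9.20, 9.12 and 9.11 in posterior, 1.62-fold lower (log2 -0.70, SE 0.19, limma adjusted p = 0.0182). Yaf2 was detected on no anterior array, at 4.45, 4.51 and 4.75, and on all posterior arrays, at 6.07, 6.40 and 6.24. With the background correction used here it was at least 2.65-fold higher (limma adjusted p = 5.79e-05), and like Cbx8 it passed the detection filter only through posterior. The Rybp call was lost without anterior replicate 1 (adjusted p = 0.0609) and without posterior replicate 2 (0.0637) or 3 (0.0537), and with arrays scaled to a common median (0.0710).

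Each variant complex is defined by its own PCGF protein, and the 4 genes split. Pcgf6, whose complex also holds the factors MGA, MAX, E2F6 and L3MBTL2 at germline genes, lay at 9.52, 9.49 and 9.59 in anterior and 8.90, 9.02 and 9.03 in posterior (log2 -0.55, SE 0.13, limma adjusted p = 0.00764). Pcgf5 lay at 8.48, 8.03 and 8.18 in anterior and 8.93, 8.72 and 8.75 in posterior (log2 0.57, SE 0.16, limma adjusted p = 0.0183). Neither change reached 1.5-fold. The Pcgf5 call was lost without anterior replicate 2 (adjusted p = 0.0543) or posterior replicate 1 (0.0634), and that of Pcgf6 with arrays scaled to a common median (0.163). Pcgf3, which shares its partners with Pcgf5, had a difference of 0.41 (SE 0.15, limma adjusted p = 0.0601). Pcgf3 passed without posterior replicate 1 (limma adjusted p = 0.0274) but not without any other single array. Pcgf1 lay at 8.73, 8.75 and 8.66 in anterior and 8.87, 8.38 and 8.56 in posterior, with overlapping groups (log2 -0.11, SE 0.16).

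KDM2B brings the PCGF1 complex to unmethylated CpG islands. The brightest Kdm2b probe lay at 8.0, 8.19 and 7.93 in anterior and at 8.41, 8.74 and 8.80 in posterior, 1.53-fold higher (log2 0.61, SE 0.16, limma adjusted p = 0.0130). Of its 4 probes 2 were higher and 2 did not pass. The mean of the 4 probes did not pass (log2 0.35, adjusted p = 0.0743), nor did the brightest probe without posterior replicate 2 (0.0578) or 3 (0.0558).

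In PRC2 the enzyme gene Ezh2 and the scaffold gene Suz12 did not pass, while Eed was lower. EED binds the methylated histone and stimulates the enzyme. Eed lay at 8.27, 8.15 and 8.54 in anterior and at 6.79, 6.57 and 6.25 in posterior, 3.44-fold lower (log2 -1.78, SE 0.18, limma adjusted p = 1.08e-04). No posterior array came near the anterior ones. A second Eed probe, designed on a different cDNA, was dim in both groups, with means of 5.10 and 5.09, and did not pass (log2 -0.01, SE 0.21). With the mean of both probes the Eed difference was -0.90 (adjusted p = 0.00325).

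The brightest Ezh2 probe lay at 9.16, 9.06 and 10.12 in anterior and at 8.91, 8.69 and 9.86 in posterior (log2 -0.29, SE 0.36, limma adjusted p = 0.546). The third array of each group was the highest, and the groups overlapped. Its second probe did not pass either (log2 -0.34, SE 0.19, limma adjusted p = 0.190). The Ezh2 difference was below 0 in 17 of 18 alternatives, which re-use the same arrays, and 0.045 without anterior replicate 3. Suz12 lay at 11.36, 9.91 and 11.74 in anterior and at 11.32, 10.91 and 10.25 in posterior (log2 -0.17, SE 0.46, limma adjusted p = 0.787). Its sign changed without anterior replicate 1 (0.0019), without anterior replicate 3 (0.19) and without posterior replicate 3 (0.11). Neither gene passed, and no direction can be given for either.

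The histone-binding subunits Rbbp4 and Rbbp7, which PRC2 shares with other complexes, differed in their calls. Rbbp7 lay at 10.17, 9.46 and 10.42 in anterior and 10.66, 10.60 and 10.82 in posterior, 1.60-fold higher (log2 0.68, SE 0.24, limma adjusted p = 0.0464). Of its 4 probes 3 were higher and 1 did not pass. Its call was lost on leaving out any array but anterior replicate 3, with adjusted p = 0.0780 and 0.0857 without anterior replicates 1 and 2, and 0.0826, 0.0910 and 0.126 without posterior replicates 1, 2 and 3. Without anterior replicate 2 its difference was 0.39. The brightest Rbbp4 probe lay at 7.41, 8.22 and 7.47 in anterior and 6.97, 7.32 and 7.21 in posterior and did not pass (log2 -0.53, SE 0.23, limma adjusted p = 0.0917), while its dimmer probe was lower by a similar amount and passed (log2 -0.53, SE 0.13, limma adjusted p = 0.0119).

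The Polycomb-like genes Mtf2 and Phf19 encode proteins that bring PRC2 to CpG-rich DNA. Phf19 lay at 6.56, 6.74 and 6.55 in anterior and 5.46, 5.71 and 5.12 in posterior, 2.27-fold lower (log2 -1.18, SE 0.17, limma adjusted p = 8.64e-04). The groups did not overlap. Mtf2 lay at 10.39, 8.57 and 10.99 in anterior and 10.495, 9.79 and 9.46 in posterior and had no settled direction (log2 -0.07, SE 0.55, limma adjusted p = 0.931).

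Promoters of 31 members were searched on both strands for 10 motifs, chosen with the values of the genes known. The E2F words TTTGGCGC and TTTCCCGC were found in the promoters of the 3 members Phf19, Ezh2 and Suz12, all of PRC2, and in 1.56% of all promoters in the table. E2F factors drive genes of the cell cycle. These promoters are shown with the E2F word, or its reverse complement, in capitals, because all 3 members with a match encode PRC2 proteins. Ezh2 held TTTGGCGC, Suz12 held TTTCCCGC and Phf19 held its reverse complement GCGGGAAA. They come from the same RefSeq table and build.
Phf19, chr2:34913927-34914226, minus strand: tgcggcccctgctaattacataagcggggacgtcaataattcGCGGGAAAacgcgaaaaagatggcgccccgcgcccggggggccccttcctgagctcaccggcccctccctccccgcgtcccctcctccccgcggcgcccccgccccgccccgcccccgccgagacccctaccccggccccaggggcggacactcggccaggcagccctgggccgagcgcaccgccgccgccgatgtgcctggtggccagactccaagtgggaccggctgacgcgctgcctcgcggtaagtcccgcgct
Ezh2, chr6:47594981-47595280, minus strand: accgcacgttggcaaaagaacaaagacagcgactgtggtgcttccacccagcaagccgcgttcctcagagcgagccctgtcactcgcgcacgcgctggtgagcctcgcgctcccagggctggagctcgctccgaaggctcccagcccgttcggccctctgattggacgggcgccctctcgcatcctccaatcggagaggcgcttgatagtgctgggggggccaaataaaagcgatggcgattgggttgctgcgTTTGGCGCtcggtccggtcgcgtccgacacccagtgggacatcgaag
Suz12, chr11:79992856-79993155, plus strand: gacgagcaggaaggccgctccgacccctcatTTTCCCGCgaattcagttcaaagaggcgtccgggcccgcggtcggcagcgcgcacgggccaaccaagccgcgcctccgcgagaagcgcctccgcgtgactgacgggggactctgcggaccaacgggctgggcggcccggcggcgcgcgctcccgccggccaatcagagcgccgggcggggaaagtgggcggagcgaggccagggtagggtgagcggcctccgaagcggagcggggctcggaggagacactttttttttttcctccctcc

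Of these only Phf19 passed the test. The other motifs were the octamer ATGCAAAT (1 member, 1.74% of all promoters), the E-box CACGTG (8 members, 7.15%), the CRE word TGACGTCA (1 member, 1.79%), an NRF1 word (1 member, 0.971%), CCAAT (14 members, 37.4%), a YY1 word (0 members, 0.633%), the ETS word CCGGAAGT (0 members, 3.89%), the GC box GGGCGG (24 members, 35.7%) and the SMAD word CAGACA (6 members, 21.0%). Members with several starts had more than 1 chance to match. Member promoters also held more CG, with a median of 24 against 7 over all promoters. For words that hold CG, such as the E2F words and the GC box, the share over all promoters is therefore no matched background. A match is a description of the sequence and not a binding site.

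Mtf2 and Suz12 were the members with the largest spread between arrays of the same group. Their pooled standard deviations within groups were 0.97 and 0.78, larger than in 99.5% and 98.7% of all tested genes, against a median of 0.20. All 3 Mtf2 probes were lowest on anterior replicate 2, by 1.16 to 1.41 below the anterior mean, and so was Suz12, by 1.09. In posterior all 4 of these probes were lowest on replicate 3. The same anterior array was the lowest for both Kdm6a probes and all 4 Rbbp7 probes. The brightest Ezh2 probe was lowest there too, by 0.38, but in posterior it was highest on replicate 3. The second Ezh2 probe went the other way, highest in anterior on replicate 2, by 0.35 above the anterior mean. Anterior replicate 2 had the highest mean raw intensity, 283, against 227 and 241 on the other anterior arrays, and its part in this spread was not tested. Without anterior replicate 2 and posterior replicate 3 together, an alternative chosen after these values were seen, 7 members were higher and 9 lower, of 33 tested.

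**Figure D3:**
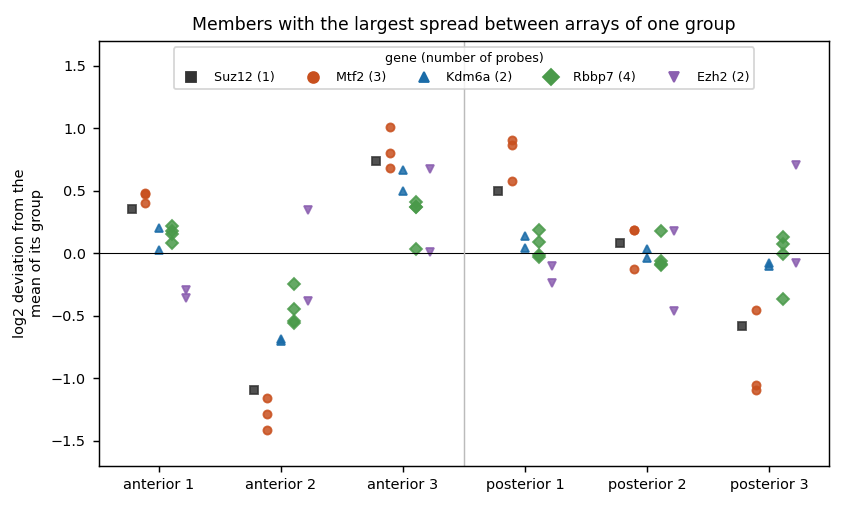
Deviation of each probe from the mean of its group, in log2 units, on the 6 arrays for the 5 members with the largest spread within groups. Points are probes. Suz12 and the 3 Mtf2 probes are low together on anterior replicate 2 and posterior replicate 3.

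The shared core of COMPASS was lower. It is made of WDR5, RBBP5, ASH2L and DPY30, which every KMT2 and SETD1 enzyme needs for full activity. Ash2l lay at 10.98, 11.07 and 10.78 in anterior and 9.96, 10.08 and 9.60 in posterior, 2.09-fold lower (log2 -1.06, SE 0.17, limma adjusted p = 0.00116). Wdr5 lay at 9.30, 9.68 and 9.19 in anterior and 8.52, 8.53 and 8.54 in posterior, 1.81-fold lower (log2 -0.86, SE 0.16, limma adjusted p = 0.00270). Dpy30 lay at 11.44, 11.54 and 11.11 in anterior and 10.76, 10.36 and 10.52 in posterior, 1.76-fold lower (log2 -0.82, SE 0.17, limma adjusted p = 0.00492). The second probes of Ash2l and Dpy30 were lower as well, with differences of -1.23 and -0.94. In none of these 3 genes did the groups overlap.

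Rbbp5, the fourth core gene, was lower by less, from 8.02, 8.27 and 7.86 to 7.70, 7.57 and 7.48 (log2 -0.47, SE 0.15, limma adjusted p = 0.0366). Its call was lost without anterior replicate 1 (adjusted p = 0.0839) or 2 (0.102) and without posterior replicate 1 (0.0527), 2 (0.107) or 3 (0.121). With arrays scaled to a common median neither Rbbp5 (0.603) nor Wdr5 (0.0731) passed, and both kept their sign.

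Of the enzymes and their own partners, 1 was lower, 1 was higher and 2 did not pass. Setd1b was lower, from 8.72, 9.16 and 9.01 to 8.16, 8.53 and 8.49 (log2 -0.57, SE 0.17, limma adjusted p = 0.0245), and its call was lost without anterior replicate 2 (0.0713) or 3 (0.0571), without posterior replicate 1 (0.0837) or with arrays scaled to a common median (0.307). Its paralogue Setd1a had overlapping groups (log2 -0.06, SE 0.17, limma adjusted p = 0.804). Cxxc1, whose protein takes SETD1 complexes to CpG islands, did not pass with either probe, with differences of 0.22 and -0.04. Men1, which encodes the menin subunit of KMT2A and KMT2B complexes, was 1.57-fold higher, from 8.36, 8.48 and 7.90 to 8.93, 8.98 and 8.77 (log2 0.65, SE 0.18, limma adjusted p = 0.0172). Both Men1 probes were higher, and the call was lost without posterior replicate 2 (0.0690).

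The H3 demethylase genes Kdm6a and Kdm6b had different calls. Kdm6b, an inducible enzyme, lay at 6.91, 6.90 and 6.42 in anterior and at 8.11, 8.35 and 8.38 in posterior, 2.90-fold higher (log2 1.54, SE 0.17, limma adjusted p = 2.09e-04). Of its 3 probes 2 were higher, and the dimmest did not pass (log2 0.12, SE 0.14), so with the mean of the probes the difference was 0.99. Kdm6a, an X-linked subunit of KMT2C and KMT2D complexes, lay at 9.23, 8.33 and 9.52 in anterior and 9.03, 8.85 and 8.79 in posterior, with overlapping groups (log2 -0.14, SE 0.28, limma adjusted p = 0.726). Without anterior replicate 2 its difference was -0.48 and it passed as lower (limma adjusted p = 0.0486), but it did not pass without any other single array.

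**Figure D4:**
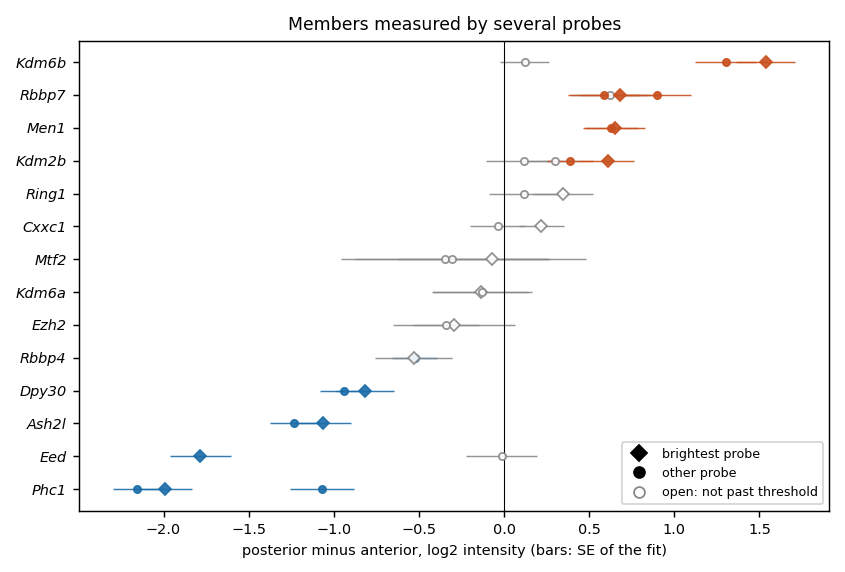
Difference between posterior and anterior for each probe of the 14 members with several tested probes. Diamonds are the brightest probe of a gene, circles the others, bars the SE of the fit over 3 arrays a group, and open symbols did not pass the threshold. The probes of Eed and of Kdm6b lie apart, and in 0 members did 1 probe pass as higher and another as lower.

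Probe choice was checked over the 14 members with several tested probes. In 4 of them all probes passed in the same direction, in 5 some passed and others did not, and in 5 none passed. The 5 with mixed calls were Eed, Kdm2b, Kdm6b, Rbbp4 and Rbbp7. Phc1, Ash2l, Dpy30 and Men1 were the members in which every probe passed.

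Paralogues were then set against each other within each array. A factor that moves both log2 levels of an array by the same amount then cancels. Effects of the background step, which are larger for dim probes, do not cancel. Of 21 pairs 17 could be computed. In 12 of the 17 the posterior arrays did not overlap the anterior ones, and in 9 of the 13 pairs without a gene undetected in anterior. Single genes did not overlap in 58.3% of cases, and no share was computed for other gene pairs, so the count describes these pairs and marks nothing particular to them. Each of the 12 had p = 0.1 in the exact two-sided permutation test over the 6 arrays, the smallest that 3 against 3 allows. After Benjamini-Hochberg adjustment over the 17 pairs this p was 0.142, so no pair could pass and the values are descriptive. In 6 pairs 1 gene was past the threshold as higher and the other as lower in the limma fit. Among them Cbx7 with Cbx8, Cbx6 with Cbx8 and Rybp with Yaf2 rest on a gene that entered the test through posterior only. That leaves such a gene almost no room for a lower call. The chromobox pairs also re-use the same genes, and no share was computed for other pairs, so this count is descriptive.

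The largest shift was between Phc1 and Phc2. Phc1 minus Phc2 was 3.54, 3.68 and 3.40 on the anterior arrays and -1.12, -1.02 and -1.23 on the posterior arrays, a shift of -4.66 (SE 0.10), or 25.4-fold. For pair shifts the SE comes only from the variances of that pair's values within each group. It is not the SE of the limma fit, and with so few arrays it is imprecise. The sign of such a value within an array has no meaning, since it compares different probes. Among chromobox pairs Cbx7 minus Cbx2 shifted by -1.54 (SE 0.29) and Cbx2 minus Cbx6 by 1.58 (SE 0.22), with no overlap in either, and Cbx7 minus Cbx6 by 0.05 (SE 0.21) with overlapping arrays. In the 4 pairs with Cbx8 or Yaf2, which no anterior array detected, only a bound can be given, with the undetected gene set at the floor described above. At that floor Rybp minus Yaf2 shifted by -2.10, Cbx6 minus Cbx8 by -1.81 and Cbx7 minus Cbx8 by -1.76, each without overlap. True shifts may be larger, but these bounds hold only for the background correction used here. Over the alternatives the smallest fitted shifts were -1.45, -1.22 and -1.24, in the same order. No shift is given for Cbx2 minus Cbx8, whose arrays overlapped and whose sign turned with the background step.

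Bmi1 minus Pcgf2 was -1.31, -1.63 and -1.49 in anterior and 0.48, -0.26 and -0.33 in posterior, a shift of 1.44 (SE 0.28). Kdm6a minus Kdm6b shifted by -1.67 (SE 0.51) and Rbbp4 minus Rbbp7 by -1.21 (SE 0.56). Pcgf1 minus Pcgf6 shifted by 0.44 (SE 0.19) with no overlap. Setd1a minus Setd1b (0.51, SE 0.24), Mtf2 minus Phf19 (1.11, SE 0.84) and Pcgf3 minus Pcgf5 (-0.16, SE 0.25) had overlapping arrays.

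**Figure D5:**
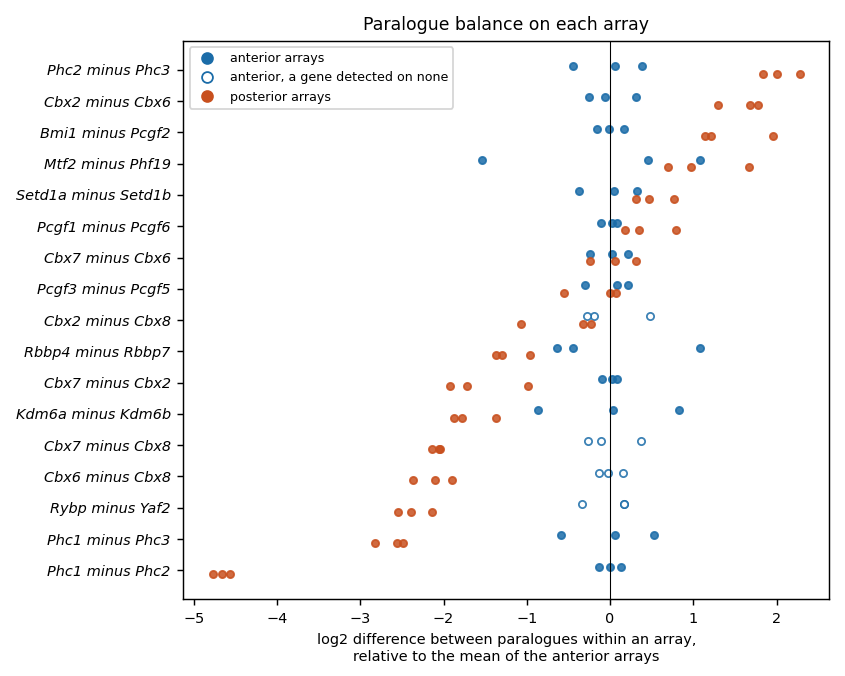
Log2 difference between the 2 genes of each of the 17 pairs within each array, relative to the mean of the anterior arrays. Points are arrays, and open points are anterior arrays of pairs in which 1 gene was detected on no anterior array. The posterior arrays of Phc1 minus Phc2 lie farthest from the anterior ones, a shift of -4.66, and 12 pairs show no overlap.

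Other Polycomb and trithorax genes, some of them outside these complexes, were read from a list of 54. Of 40 tested genes 9 were higher, 8 lower and 23 did not pass, with a median difference of -0.04. The share that passed, 42.5%, was close to the 47.4% of all genes and is no result about the list. Those past the threshold with the largest differences included 2 partners of PCGF6. E2f6 was 3.40-fold higher (log2 1.76, SE 0.13, limma adjusted p = 2.12e-05), and L3mbtl2 was 3.11-fold lower (log2 -1.64, SE 0.19, limma adjusted p = 2.61e-04). Of the further PCGF6 partners named above, Max was lower (log2 -0.63, SE 0.18, limma adjusted p = 0.0218). Mga did not pass (log2 -0.68, SE 0.25, limma adjusted p = 0.0539). Ncoa6, a subunit of KMT2C and KMT2D complexes, was 3.79-fold higher, and Wdr82, a subunit of SETD1 complexes, 2.07-fold lower. Dcaf7, a partner of PCGF3 and PCGF5, was 2.38-fold higher, Kmt2e 2.36-fold higher, and Asxl3, of the complex that removes the PRC1 mark, 1.998-fold higher, though only 1 of the 3 anterior arrays detected it. Kdm5b, which removes the COMPASS mark, was 2.14-fold lower. With arrays scaled to a common median 5 of these genes were lower in place of 8.

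Textbook Polycomb targets outside the Hox clusters were read as a separate list of 25, of which 7 were tested. Of these 6 were higher and 0 lower in the limma fit, with Isl1 not past the threshold, and 6 had an unadjusted p under 0.05. The genes Gata6 (at least 13.4-fold), Sox17 (at least 4.18-fold), Tbx2 (at least 1.77-fold) and Cdx2 had no detected signal in anterior and entered the test through posterior only, which leaves almost no room for a lower call. Msx1 was 4.29-fold higher (log2 2.10, SE 0.23, limma adjusted p = 1.69e-04). Cdkn2a, the cell cycle inhibitor locus held silent by BMI1 and CBX7 in other mouse cells, was named after its value was seen. It was detected on all arrays of both groups, with levels of 6.23, 5.84 and 5.89 in anterior against 6.70, 7.41 and 7.15 in posterior (log2 1.10, SE 0.20, limma adjusted p = 0.00290). Without any 1 posterior array 3 targets were tested and 2 were higher.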

How the data were processed

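Total RNA of 3 samples labelled anterior and 3 labelled posterior was read on 1 bead array each. Per the file headers, the deposited table gave a linear intensity and a detection p-value for each of 45281 probes and array, neither background subtracted nor normalized between arrays, as the values show. The authors' second deposited table held log2 values of 18312 probes, equal to the quantile-normalized log2 intensities of these probes to within 5.00e-09. The submitters' processing notes name limma, and name no version.

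The neqc method of limma (version 3.58.1, run in R 4.3.3) was applied to the intensities. It corrects the background from the detection p-values, adds an offset of 16 that shrinks differences of dim probes, takes log2 and applies quantile normalization. Probes detected (p under 0.05) on at least 3 of the 6 arrays, 18242 in all, were fitted with lmFit and eBayes, with Benjamini-Hochberg adjustment over all of them. Gene names came from the platform annotation, in which 15550 probes had 1 symbol, 9 had several and 2753 were unnamed, and 15537 matched a RefSeq gene identifier. Where a gene had several tested probes, the brightest on average stood for it. The number of arrays limits the precision.

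The members and lists were chosen with earlier results of these data known. Every member is accounted for. Values per array are given where a member passed with at least 1.5-fold, where its probes disagreed or where its paralogue went the other way, and for other members where they help. Of the other genes up to 8, and of the targets up to 4, with the largest differences past the threshold are named by rule. The targets Cdx2, Cdkn2a and Isl1 and the other genes Max and Mga were added after their values were seen. The fit had no replicate block, because the labels do not pair the samples. Each probe's deviations from its group mean correlated at 0.289, 0.162 and -0.0774 between same-numbered arrays. The levels themselves correlated at 0.882 to 0.905 between arrays of different groups. Alternatives changed the background correction, offset, scaling, detection filter, probe rule, variance model, array weights, block and arrays included, 18 settings in all, and the steps were tested on simulated data. Figures were drawn with matplotlib 3.10.9.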

Additional observations from a re-analysis of the deposited data

How the results depend on the processing

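Of the 22 member calls, 11 were kept under all alternatives in which the gene was tested, 11 were lost under at least 1, and 0 changed sign. Leaving out each array in turn gave 5 to 11 higher and 9 to 11 lower members, 3192 to 4527 genes past the threshold, 6 to 8 higher and 7 to 11 lower among the other Polycomb and trithorax genes, and 2 to 6 higher targets. The smaller counts without a posterior array include 2 fewer tested members, Cbx8 and Yaf2, through the detection filter. Without anterior replicate 2 and posterior replicate 3, and with detection required on all 6 arrays, 2 targets were higher, of 3 tested in each case. With arrays scaled to a common median 5 members and 5 other Polycomb and trithorax genes were lower, and 72.1% of all calls were higher, against 54.7%, and 72.2% of member calls, against 45.5%. The cause was not tested.

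Among members not past the threshold, the sign turned with median scaling for Pcgf1 (0.0795), Setd1a (0.12) and Kdm6a (0.0375). Leaving out arrays, with anterior replicate 2 and posterior replicate 3 also left out together, gave ranges through 0 for Ezh2 (-0.83 to 0.045), Suz12 (-0.72 to 0.19), Mtf2 (-0.77 to 0.43), Setd1a (-0.22 to 0.11) and Kdm6a (-0.48 to 0.11), and for the pairs Cbx7 minus Cbx6 (-0.0945 to 0.29) and Pcgf3 minus Pcgf5 (-0.31 to 0.032). Cbx7 minus Cbx6 also turned to -0.0123 without background correction and in the authors' log2 table, and to -0.0935 with median scaling. Cbx2 minus Cbx8 turned to 0.0165 without background correction, 0.0116 with an offset of 50 and 0.0702 in the authors' table, with Cbx8 undetected in anterior. The other 14 pairs kept their sign.

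Dim members depend on the background step. In the authors' deposited table, without background correction, the differences of Bmi1 and Phf19 were 0.50 and -0.69, against 1.09 and -1.18, and both passed. With the replicate block 11 members were higher and 13 lower, with Scmh1 (adjusted p = 0.0336) and Rbbp4 (0.0421) added, and 4744 genes passed against 4699. The numbers do not pair the samples, and the block lost no member call.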

Other observations

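Phc1 lies on chromosome 6 in the same region as Nanog, with 6 protein-coding genes between them in RefSeq's order. Among the 5 tested genes on the Nanog side of Phc1, Apobec1 (log2 -1.02, SE 0.20), Gdf3 (-3.35), Dppa3 (-2.74) and Nanog (-3.33) were lower in posterior, and Mfap5 did not pass. Gdf3 encodes a growth factor of the TGF-beta family, and Dppa3 a maternal factor that protects DNA methylation marks. On the other side the nearest tested gene, M6pr, did not pass (log2 0.06), and Usp18 and Slc6a13 were higher. The Phc1 neighbours were looked at after the Phc1 value was seen, and no test of the region was made.

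Apobec3, which encodes a cytidine deaminase that acts on retroviruses, was the tested gene between Cbx6 and Cbx7 and was 4.05-fold lower (log2 -2.02). Syngr1, 3 tested genes beyond Cbx7, was lower (log2 -1.86), while Sun2, next to Cbx6 on the other side, was higher (log2 0.79). Next to Phc2 on chromosome 4, Zfp362 was 9.74-fold higher (log2 3.28), and the nearest tested gene on the other side, Zscan20, did not pass (log2 -0.15).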
